A study of Homo sapiens with 9 samples.

Results

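The genes described here are 10 genes better known from neurons and from endocrine cells that store hormones in granules: CHGA, CHGB, NEFL, NEFM, SYP, GAP43, CADPS, BRSK2, UTS2 and TSHR. They are 10 of the 60671 genes in the count files, and they were chosen by symbol with their values in these libraries already known. Their levels and differences are therefore a description, with no test. RNA was sequenced from H295R, a human steroid-making line that comes from a carcinoma of the adrenal cortex, with 3 libraries in each of 3 groups and no treatment. WT cells carry no stated change, KO cells are labelled as knockout of SGPL1, and OE cells are labelled as overexpressing SGPL1, the lyase that breaks down sphingosine-1-phosphate. The sources used here do not give the kind of edit, the construct, its promoter or the number of clones. The series calls the libraries biological replicates without naming separate cultures, so p-values cover only the spread of these libraries, which may be partly technical.

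Neuroendocrine cells keep peptides in dense-core granules. Granins help to pack these granules, convertases and carboxypeptidases cut the prohormones inside them, and SNARE proteins fuse primed granules with the plasma membrane when calcium rises. Chromaffin cells of the adrenal medulla are the classical adrenal cells of this kind. The cortex makes steroids, which are not stored in granules, but some adrenocortical tumours are known to express neuroendocrine proteins such as synaptophysin.

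SGPL1 was measured at 101, 83.2 and 97.9 CPM (counts relative to the scaled library total, per 1e6) in WT, 47.1, 43.8 and 53.7 CPM in KO, and 97.9, 81.1 and 101 CPM for the OE-labelled libraries. It fell in KO (log2 fold change -0.97 ± 0.14 SE, edgeR adjusted p = 0.000105), and it was not higher in the OE-labelled libraries (-0.01 ± 0.14, adjusted p = 0.966), so directions for that group are given by label. Library totals ran from 8006873 to 10895080 counts. At the smallest total, a count of 0 allows up to 0.375 CPM of the unscaled total, with counting error only and each count taken as independent. The slope of log2 deviation on log2 exon length was -0.204 to -0.075 in the OE-labelled libraries and -0.053 to 0.129 in the other 6, and its part in the differences between genes of unequal length was not tested beyond a length-corrected fit. Of 13 adrenocortical marker genes, 12 passed the filter on low counts, and their summed level was 3000 to 3340 CPM in WT, 4250 to 4880 in KO and 4240 to 5020 in the OE-labelled libraries. SCARB1 was the largest part of these sums, with means of 1080, 1790 and 1930 CPM in that order. The markers did not all move one way: STAR was higher in both groups than in WT (317, 542 and 386 CPM), and CYP17A1 was lower (67.9, 58.8 and 59.4 CPM). Of 10 chromaffin markers, 7 had no count in any library, TH, DDC, DBH, PNMT and SLC18A1 among them. Chromaffin marker sums were 1.61 to 2.81 CPM in WT, 0.466 to 1.29 in KO and 3.18 to 4.6 in the OE-labelled libraries. Only 1 of the 10 passed the filter, the nicotinic receptor gene CHRNA3. By itself it had 1.38 to 2.81, 0.233 to 1.29 and 3.18 to 4.6 CPM in the same order. These sums therefore mostly follow 1 gene with low counts.

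All 10 genes passed the filter on low counts, UTS2 through the KO libraries, and CADPS, BRSK2 and TSHR through the other groups. In KO, 7 of the 10 lay below every WT library and 2 above, while CHGA overlapped. Over the 14150 genes tested, 17.6% had no overlap with KO lower and 17.6% with KO higher. In the OE-labelled libraries, 6 of the 10 lay below every WT library and 0 above, against 18.6% and 17.8% of all genes. Between the OE-labelled libraries and KO, 4 were higher and 2 lower in the former, against 25.3% and 26.4%. These genes were chosen on such values, so nothing is read from the counts. The comparisons share libraries: both with WT use the same 3 WT libraries. In bulk RNA, fewer cells of a kind and less RNA per cell cannot be told apart.

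**Figure D1:**
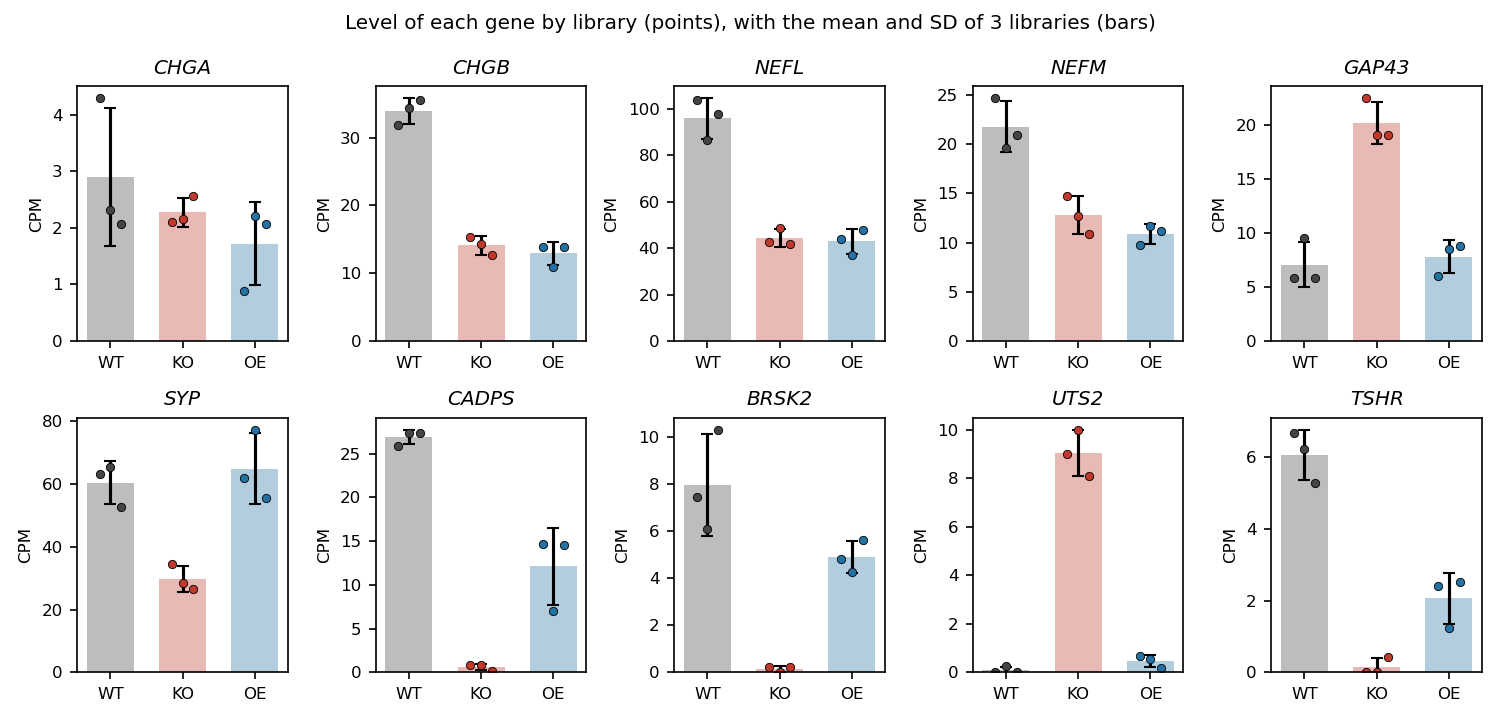
Level of each of the 10 genes in CPM on a linear axis from 0, 1 panel per gene with its own scale. Points are the 3 libraries of WT, KO and the OE-labelled group, bars are the means and error bars the SD (n = 3). CADPS, BRSK2 and TSHR lie close to 0 in KO, UTS2 is high in KO alone, and CHGB, NEFL and NEFM are lower in both other groups than in WT.

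CHGB (ENSG00000089199, chromosome 20, 5911510 to 5925353, GRCh38) encodes chromogranin B, a core protein of dense-core granules. It had 31.8, 34.3 and 35.6 CPM in WT, 15.3, 14.3 and 12.6 in KO, and 13.9, 10.9 and 13.8 for the OE-labelled libraries. All 6 other libraries lay below all 3 WT libraries, and KO overlapped the OE-labelled libraries. The log2 fold change was -1.27 ± 0.16 in KO (41.6% of WT) and -1.39 ± 0.16 in the OE-labelled libraries (38.1% of WT). The difference between those groups was -0.12 ± 0.17, with a 95% interval of -0.54 to 0.29.

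CHGA (ENSG00000100604, chromosome 14, 92923150 to 92935285) encodes chromogranin A, the granin most used as a clinical marker of neuroendocrine tumours. It was weakly expressed, with 38, 19 and 18 counts in WT, 18, 20 and 24 in KO, and 8, 16 and 22 for the OE-labelled libraries. The groups overlapped in all 3 comparisons. The log2 fold change was -0.35 ± 0.43 in KO (95% interval -1.40 to 0.70) and became 0.05 without WT replicate 1, so the data hold no direction for CHGA there. The related genes from the granin list differed from each other. VGF, a granin-like precursor of secreted peptides, fell in KO and rose in the OE-labelled libraries, from 156 ± 32.3 CPM in WT to 56.5 ± 13.5 and 315 ± 69 (SD, n = 3). The edgeR changes were -1.46 ± 0.19 (adjusted p = 4.74e-05) and 1.02 ± 0.19 (adjusted p = 0.00188), and the 2 groups differed by 2.48 ± 0.20 (adjusted p = 1.89e-07). PCSK1N, an inhibitor of prohormone convertase 1, fell in both, by 1.02 on the log2 scale in KO (edgeR adjusted p = 0.00182) and by 0.87 in the OE-labelled libraries (adjusted p = 0.00745, 0.0508 without WT replicate 1).

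SCG3, a granin that binds chromogranin A, fell from 3.3 to 1.02 CPM in KO (-1.67 ± 0.53, edgeR adjusted p = 0.0349) and to 1.08 CPM in the OE-labelled libraries (-1.55, adjusted p = 0.0448). These 2 calls are weak, and the levels below WT lay close to the filter on low counts. The KO call was lost without WT replicate 1, 2 or 3 or KO replicate 1 or 3 (adjusted p up to 0.151), and the OE call was lost in 8 of 17 alternatives, among them without WT replicate 1, 2 or 3, KO replicate 1, or OE replicate 1, 2 or 3 (up to 0.165). SCG2, which encodes secretogranin II, was below the filter with 4, 4 and 4 counts in WT, 0, 0 and 0 in KO, and 7, 4 and 11 for the OE-labelled libraries. Against a floor of 3 counts over the KO group, and with the counts of the other groups taken as measured, KO was at least 4.23-fold lower than WT and at least 7.39-fold lower than the OE-labelled libraries. SCG5, a chaperone of convertase 2, had 0 to 12 counts per library and was not tested. In the granin list, 3 of 5 further genes were tested, with 0 called higher and 3 lower in KO, where 9.16% of all genes were called higher and 9.6% lower. For the OE-labelled libraries, 1 was called higher and 2 lower, against 9.65% and 11%.

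Of 12 genes for enzymes that cut and trim prohormones, 9 were tested. In KO, 0 were called higher and 2 lower (22.2%, against 18.8% of all genes). In the OE-labelled libraries, 1 was higher and 1 lower (22.2%, against 20.7%). CPE, the carboxypeptidase that trims prohormone fragments in granules, fell from 2.12 to 0.149 CPM in KO (-3.73 ± 0.72, edgeR adjusted p = 0.00144), or 55 counts against 4. The KO counts of CPE alone would not pass the filter on low counts. Its level in the OE-labelled libraries was 0.867 CPM, with an adjusted p of 0.097 against WT. PCSK5, a convertase of the secretory pathway, fell from 7.04 to 1.88 CPM in KO (-1.90 ± 0.33, adjusted p = 0.00059) and stood at 5.47 CPM in the OE-labelled libraries. QPCT, which forms the N-terminal pyroglutamate of peptides, rose by 0.40 ± 0.10 in the OE-labelled libraries (edgeR adjusted p = 0.00867), but not with the length correction or without WT replicate 1 (up to 0.0867). PAM, which amidates peptides, was at 247, 269 and 249 CPM in WT, KO and the OE-labelled libraries, with edgeR adjusted p of 0.548 and 0.96 against WT. The classical granule convertases were nearly silent: PCSK1 had 1 count in 1 library and PCSK2 had 2 counts in 1 library.

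Promoter sequence was available in RefSeq's table (GRCh38.p14) for 7 of the 10 genes, in 11 windows. It was searched on both strands from 250 bases before to 50 after each start, since cAMP response elements and RE1 elements (bound by the repressor REST) are textbook elements of neuroendocrine genes. The 250 bases before the start are shown for CHGA (chr14:92922900-92923149, plus strand), GAP43 (chr3:115623260-115623509, plus strand) and CADPS (chr3:62875417-62875666, minus strand), as examples of overlapping, higher and lower values in KO. In the CHGA run, capitals mark a GC box and, after it, the cAMP response element. The first capitals of GAP43 are a CCAAT box read on the opposite strand, and its second are the right part of RE1. The first capitals of CADPS are also a CCAAT box on the opposite strand, its second are one on the gene's own strand, and its last begin another that runs across the start.
CHGA: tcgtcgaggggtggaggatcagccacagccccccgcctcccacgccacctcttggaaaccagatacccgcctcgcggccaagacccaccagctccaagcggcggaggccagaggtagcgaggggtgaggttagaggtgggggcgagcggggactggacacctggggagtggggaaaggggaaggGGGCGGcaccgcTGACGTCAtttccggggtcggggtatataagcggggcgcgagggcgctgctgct
GAP43: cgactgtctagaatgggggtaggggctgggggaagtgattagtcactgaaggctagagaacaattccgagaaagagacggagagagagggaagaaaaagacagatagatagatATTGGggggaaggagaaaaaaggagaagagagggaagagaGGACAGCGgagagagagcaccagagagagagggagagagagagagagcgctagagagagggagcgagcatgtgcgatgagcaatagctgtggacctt
CADPS: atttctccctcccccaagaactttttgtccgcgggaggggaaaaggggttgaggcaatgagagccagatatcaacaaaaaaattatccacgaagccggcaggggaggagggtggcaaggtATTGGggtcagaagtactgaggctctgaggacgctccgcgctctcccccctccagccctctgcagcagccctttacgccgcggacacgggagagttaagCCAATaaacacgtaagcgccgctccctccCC
The palindrome TGACGTCA, the full cAMP response element, starts at -54 in CHGA and is held by 1.85% of the 35116 promoters in the table. GGACAGCG, the right part of RE1, starts at -97 in GAP43 and is held by 1.63%. The left part TTCAGCACC (0.376% of promoters) and the variant TGACGTAA (0.416%) are in none of the 11 windows. CCAAT, held by 34.6% of promoters, is in CADPS, GAP43 and UTS2, and GGGCGG, held by 45%, is in CHGA, SYP and BRSK2. TATAAA, held by 11.5%, is in 1 window, that of a second start of UTS2. A match is a run of letters and not a bound site.

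Neurofilaments are the intermediate filaments of axons, built from light, medium and heavy chains and alpha-internexin. NEFL (ENSG00000277586, chromosome 8, 24950955 to 24956721), the light chain, was the most abundant of the 10 genes per length in WT. It had 104, 86.5 and 97.8 CPM in WT, 42.5, 48.7 and 41.6 in KO, and 43.9, 37.1 and 47.8 for the OE-labelled libraries. Every WT library was above the other 6, which overlapped each other. Its log2 fold change was -1.12 ± 0.14 in KO and -1.16 ± 0.14 in the OE-labelled libraries, or 46.1% and 44.7% of WT, and the difference between those groups was -0.04 ± 0.14 (95% interval -0.39 to 0.30).

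NEFM (ENSG00000104722, chromosome 8, 24913758 to 24919098), the medium chain and a neighbour of NEFL, had the same order. It stood at 24.7, 19.6 and 21 CPM in WT, 14.7, 12.7 and 10.9 in KO, and 9.76, 11.7 and 11.2 for the OE-labelled libraries. WT lay above both groups, by a log2 fold change of -0.77 ± 0.18 in KO and -1.0 ± 0.18 in the OE-labelled libraries. Of its exon length, 26.4% is shared with ENSG00000272163, where reads were not assigned to either gene. That gene had 39 to 51 counts in WT, 23 to 35 in KO and 52 to 93 in the OE-labelled libraries. Over the 9 libraries, log2 CPM of CHGB and NEFL had a Pearson correlation of 0.98, and NEFM had 0.92 with each. These correlations come from 9 libraries in 3 groups with shared depth, and are a description.

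NEFH, the heavy chain, had 25.8, 11.2 and 25.4 CPM in WT, 12.9 ± 1.54 in KO and 5.65 ± 1.6 in the OE-labelled libraries. It fell in the OE-labelled libraries (-1.87 ± 0.29, edgeR adjusted p = 0.000584), and its KO value did not pass (-0.70, adjusted p = 0.0829). INA, alpha-internexin, fell from 4.21 to 0.776 CPM in KO (-2.43 ± 0.45, adjusted p = 0.000981) and was at 6.52 CPM in the OE-labelled libraries (0.63, adjusted p = 0.223). Thus INA was higher in the OE-labelled libraries than in KO (3.05 ± 0.43, adjusted p = 5.69e-05), while NEFH was lower there (-1.18 ± 0.29, adjusted p = 0.00446).

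GAP43 (ENSG00000172020, chromosome 3, 115623510 to 115721490) encodes a membrane protein of growing axons and of glia. It had 5.87, 9.52 and 5.85 CPM in WT, 22.5, 19.1 and 19.1 in KO, and 6.03, 8.56 and 8.82 for the OE-labelled libraries. KO lay above the other 6 libraries, which overlapped. The KO mean was 2.85 times that of WT (log2 fold change 1.52 ± 0.23), and the OE-labelled libraries differed from WT by 0.14 ± 0.24 (95% interval -0.44 to 0.73). Glial markers moved with GAP43: their summed level was 7.22 to 7.81 CPM in WT, 14 to 17.6 in KO and 5.11 to 5.92 in the OE-labelled libraries. Of the 7 glial genes, 3 passed the filter and S100B and CDH19 had no count. Fibroblast markers summed to 9.03 to 13.2, 13.4 to 15.4 and 9.25 to 11.4 CPM in the same order, with 1 of 6 past the filter and LUM at 0, and their part and that of glial markers in the result was not tested. Leukocyte and endothelial markers reached at most 1.52 and 0.69 CPM in sum, with 0 of 5 past the filter in each list, and PTPRC, CD3E, CD68 and TEK had no count.

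In the list of neuronal cytoskeleton and growth genes, 19 of 28 further genes were tested. In KO, 3 were called higher and 4 lower (36.8%, against 18.8% of all genes). In the OE-labelled libraries, 1 was higher and 7 lower (42.1%, against 20.7%). DPYSL3, a collapsin response mediator of axon guidance, fell from 59.3 ± 3.35 to 2.24 ± 1.14 CPM in KO (-4.73 ± 0.25, edgeR adjusted p = 2.2e-09). It was at 40.4 ± 6.4 CPM, in the OE-labelled libraries, a call at adjusted p = 0.045 that was lost with the length correction and without WT replicate 1, 2 or 3, KO replicate 2, or OE replicate 1 or 3 (up to 0.151). MAP1B, a microtubule protein of growing axons, fell from 63.9 to 32.6 CPM in KO (-0.97 ± 0.21, adjusted p = 0.00315) and to 26.2 CPM in the OE-labelled libraries (-1.29 ± 0.21, adjusted p = 0.000837). BASP1, a membrane protein related in function to GAP43, fell by 1.41 in KO (SE 0.35, edgeR adjusted p = 0.0097), in the direction opposite to the GAP43 values, and by 1.33 in the OE-labelled libraries (adjusted p = 0.0146, 0.0674 without WT replicate 1). The tubulin genes TUBB2A and TUBB4A rose in KO by 0.68 ± 0.13 (edgeR adjusted p = 0.00147) and 0.83 ± 0.17 (adjusted p = 0.00254). TUBB2A rose in the OE-labelled libraries too (0.64 ± 0.13, edgeR adjusted p = 0.00386). Close copies of these tubulin genes make their counts uncertain. STMN2, a neuronal regulator of microtubules, had no count in any library.

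SYP (ENSG00000102003, chromosome X, 49187815 to 49200199) encodes synaptophysin, a membrane protein of small vesicles. It had 63.3, 65.3 and 52.6 CPM in WT, 34.5, 28.4 and 26.7 in KO, and 61.9, 77.3 and 55.4 for the OE-labelled libraries. The KO libraries lay below the other 6, which overlapped. The KO value was 49.3% of WT (log2 fold change -1.02 ± 0.16), and the OE-labelled libraries differed from WT by 0.10 ± 0.16 (95% interval -0.28 to 0.48), unlike the values of CHGB and NEFL. SYP-AS1, which overlaps 1.3% of its exon length, had no count.

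In the list of vesicle membrane genes, 23 of 39 further genes were tested. In KO, 6 were called higher and 3 lower (39.1%, against 18.8% of all genes). In the OE-labelled libraries, 3 were higher and 5 lower (34.8%, against 20.7%). SV2B, a glycoprotein of secretory vesicles, rose from 79.9 to 165 CPM in KO (1.04 ± 0.12, edgeR adjusted p = 1.64e-05), and SYT11, a synaptotagmin, from 12.1 to 29 CPM (1.26 ± 0.20, adjusted p = 0.000325). SYT11 was at 6.92 CPM in the OE-labelled libraries, a fall at adjusted p = 0.0187 that was lost without WT replicate 2 or 3 or OE replicate 2 or 3 (up to 0.134). RAB3C, a small GTPase of vesicles, fell in KO (-0.86 ± 0.14, adjusted p = 0.000434) and in the OE-labelled libraries (-0.63, adjusted p = 0.00627). PTPRN, the granule membrane protein IA-2, fell from 18.6 to 9.39 CPM in KO (-0.99 ± 0.19, edgeR adjusted p = 0.00145) and to 11.1 CPM in the OE-labelled libraries (adjusted p = 0.0119, 0.0578 without WT replicate 1). CYB561, an electron carrier of the granule membrane, rose by 0.66 ± 0.13 (edgeR adjusted p = 0.00283) and SYNGR2 by 0.78 ± 0.16 (adjusted p = 0.00381) in the OE-labelled libraries. SYPL1, the widely expressed relative of SYP, rose in KO from 172 to 238 CPM (0.47, edgeR adjusted p = 0.00927), a direction opposite to the SYP values. That call was lost without WT replicate 1 or KO replicate 3 (up to 0.0636).

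CADPS (ENSG00000163618, chromosome 3, 62398346 to 62875416) encodes CAPS1, which primes dense-core granules for release. It had 230, 224 and 239 counts in WT, 7, 8 and 2 in KO, and 134, 51 and 154 for the OE-labelled libraries, or means of 26.9 ± 0.828, 0.631 ± 0.362 and 12.1 ± 4.35 CPM. The 3 groups did not overlap, with KO lowest. WT counts were 43.1 times those of KO at equal depth (95% counting interval 26.7 to 74.3), and the OE-labelled libraries were 20.1 times KO (12.4 to 34.9). The log2 fold change of the OE-labelled libraries against WT was -1.14 ± 0.25, and -0.80 with the counts corrected for exon length, since CADPS has the longest exons of the 10 genes (14665 bases).

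**Figure D2:**
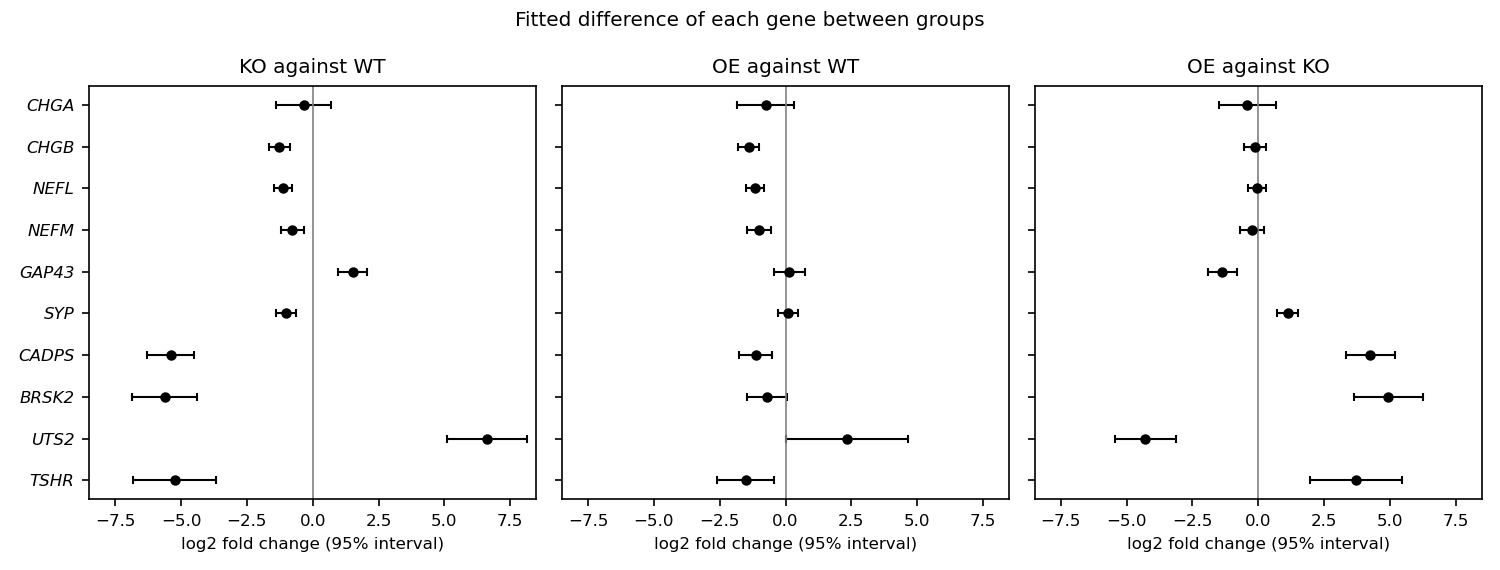
Fitted log2 fold change (points) with its 95% interval (bars) for each of the 10 genes, in 1 panel per comparison. In KO against WT, CADPS, BRSK2 and TSHR lie between -5.63 and -5.24, and for CHGB, NEFL and NEFM the interval of the OE-labelled libraries against KO includes 0. The UTS2 values against WT rest on 2 WT counts and depend on the fit's prior count.

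CADPS2, which encodes the related protein CAPS2, differed in direction: it rose from 14.8 ± 2.27 to 40.7 ± 3.49 CPM in KO (1.46 ± 0.20, edgeR adjusted p = 7.04e-05). In the OE-labelled libraries it was at 11.8 ± 3.5 CPM (-0.31, adjusted p = 0.309). DOC2B, a calcium sensor of fusion, likewise rose in KO from 18.4 to 74.8 CPM (2.02 ± 0.19, adjusted p = 1.43e-06), and fell to 8.96 CPM in the OE-labelled libraries (-1.03 ± 0.20, adjusted p = 0.00283). Other genes of release fell in KO. CPLX2, a complexin that clamps SNARE proteins, fell from 15.7 to 4.16 CPM (-1.91 ± 0.29, edgeR adjusted p = 0.00018). NAPB, which helps to take SNARE complexes apart, fell from 14.8 to 4.09 CPM (-1.85 ± 0.23, adjusted p = 2.83e-05). RIMS4, of the active zone, fell from 6.99 to 1.61 CPM (-2.11 ± 0.34, adjusted p = 0.000337). The SNARE genes SNAP25 and STX1A did not pass: SNAP25 had -0.44 (edgeR adjusted p = 0.246), and STX1A had 3.39 CPM in WT and 1.73 CPM in KO (adjusted p = 0.145). In the exocytosis list, 24 of 33 further genes were tested. In KO, 4 were called higher and 3 lower (29.2%, against 18.8% of all genes). In the OE-labelled libraries, 0 were higher and 3 lower (12.5%, against 20.7%).

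BRSK2 (ENSG00000174672, chromosome 11, 1389899 to 1462689) encodes a brain-enriched kinase that is activated by LKB1 and shapes neuronal polarity. It had 66, 50 and 90 counts in WT, 2, 0 and 2 in KO, and 44, 31 and 60 for the OE-labelled libraries. KO lay far below the other groups, with WT counts 54.4 times those of KO (206 against 4 counts, 95% counting interval 20.9 to 202). The libraries labelled OE were 61.7% of WT in the mean (log2 fold change -0.69 ± 0.31), with all 3 below the lowest WT library and a 95% interval of -1.45 to 0.07. That interval uses 6 residual degrees of freedom and is wider than one from the edgeR test would be. BRSK1, the nearest relative of BRSK2, was at 14.7, 12.2 and 11.7 CPM in WT, KO and the OE-labelled libraries (edgeR adjusted p = 0.466 and 0.329 against WT). STK11, which encodes LKB1, was at 124, 115 and 119 CPM (adjusted p = 0.685 and 0.815). Of 19 further kinases and partners of this family, 18 were tested. In KO, 1 was called higher and 1 lower (11.1%, against 18.8% of all genes). In the OE-labelled libraries, 1 was higher and 5 lower (33.3%, against 20.7%). MARK2, a polarity kinase, fell from 54.3 to 31.3 CPM in the OE-labelled libraries (-0.79 ± 0.17, edgeR adjusted p = 0.00495). SIK1, a kinase induced by cAMP, fell there too (-1.48, adjusted p = 0.0202), but not without WT replicate 1 or OE replicate 1 (up to 0.132). In KO, NUAK1 fell (-0.75, adjusted p = 0.0136), but not without WT replicate 3 or KO replicate 2 (up to 0.0812).

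UTS2 (ENSG00000049247, chromosome 1, 7843083 to 7853512) encodes urotensin II, a vasoactive peptide. It had 0, 2 and 0 counts in WT, 77, 93 and 76 in KO, and 6, 4 and 2 for the OE-labelled libraries. KO was far above the other 6 libraries, and WT overlapped the OE-labelled libraries. KO had 116 times the counts of WT (95% counting interval 31.9 to 967, on 2 WT counts) and 20.3 times those of the OE-labelled libraries (11.4 to 39.9). Of its exon length, 48.4% is shared with PER3 on the opposite strand, so only the rest could be counted. PER3, a clock gene, had 18 to 52 counts in WT, 40 to 49 in KO and 11 to 39 in the OE-labelled libraries (KO against WT 0.30 ± 0.38, edgeR adjusted p = 0.646). Its receptor gene UTS2R had 2, 2 and 0 counts in WT and 0 in the other 6 libraries. The related peptide gene UTS2B had 0 to 4 counts per library.

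TSHR (ENSG00000165409, chromosome 14, 80954989 to 81146302) encodes the thyrotropin receptor, which signals through cAMP. It had 59, 51 and 46 counts in WT, 0, 0 and 4 in KO, and 22, 9 and 27 for the OE-labelled libraries. The groups did not overlap, with KO lowest and the OE-labelled libraries in between. WT had 41.2 times the counts of KO (156 against 4, 95% counting interval 15.8 to 153), and the OE-labelled libraries had 14.6 times (5.41 to 55.4). All 4 KO counts came from replicate 3. The libraries labelled OE were 34% of WT (log2 fold change -1.52 ± 0.44).

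Few other genes of peptide signalling were expressed. Of 40 further peptide hormone genes, 14 had no count and 6 were tested. In KO, 2 were called higher and 1 lower (50%, against 18.8% of all genes). In the OE-labelled libraries, 1 was higher and 0 lower (16.7%, against 20.7%). STC1, a glycoprotein hormone, rose from 3.85 to 12.8 CPM in KO (1.73 ± 0.25, edgeR adjusted p = 0.000118). NUCB2, the precursor of nesfatin, fell in KO (-0.66, adjusted p = 0.00528), and NMB, neuromedin B, rose in the OE-labelled libraries from 1.25 to 4.18 CPM (1.73 ± 0.39, adjusted p = 0.00638). Of 36 further receptor genes, 11 were tested. In KO, 4 were called higher and 3 lower (63.6%, against 18.8% of all genes). In the OE-labelled libraries, 2 were higher and 1 lower (27.3%, against 20.7%). EDNRB, an endothelin receptor, rose in KO from 29.6 to 140 CPM (2.24 ± 0.16, edgeR adjusted p = 8.86e-08). CALCRL, the receptor of adrenomedullin and CGRP, rose from 0.927 to 18.6 CPM (4.30 ± 0.35, adjusted p = 3.8e-07). Its partner RAMP2 fell in KO (edgeR adjusted p = 0.00194), with 70 counts in WT against 4, a ratio of 18.5 (95% counting interval 6.91 to 69.7), and part of its exons is shared with RAMP2-AS1. NPR1, a natriuretic peptide receptor, rose in the OE-labelled libraries from 6.19 to 14.4 CPM (1.21 ± 0.23, adjusted p = 0.00241). It was called lower in KO (adjusted p = 0.0235), a call lost without WT replicate 1 or 3 or KO replicate 2 or 3 (up to 0.105).

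Of 31 transcription factors that control neuronal and neuroendocrine identity, 14 were tested. In KO, 1 was called higher and 2 lower (21.4%, against 18.8% of all genes). In the OE-labelled libraries, 0 were higher and 1 lower (7.14%, against 20.7%). REST, the repressor of neuronal genes, was at 46.1, 45.2 and 30.8 CPM in WT, KO and the OE-labelled libraries. Its KO value was -0.03 (edgeR adjusted p = 0.939). In the OE-labelled libraries it was called lower (-0.58 ± 0.19, adjusted p = 0.0404), a call lost in 7 of 17 alternatives, among them the length correction and the fits without WT replicate 1 or 3, KO replicate 2, or OE replicate 1 or 2 (up to 0.159). SOX4 fell in KO from 134 to 73.7 CPM (-0.86 ± 0.13, adjusted p = 0.000196). INSM1, a driver of endocrine differentiation, had 48 counts in WT and 6 in KO, a ratio of 8.45 (95% counting interval 3.61 to 24.2, edgeR adjusted p = 0.0103, and 0.0524 without KO replicate 2). Of 16 chromaffin genes, 8 had no count and 3 were tested. In KO, 1 was called higher and 1 lower, where 18.8% of all genes were called. In the OE-labelled libraries, 0 were higher and 0 lower, against 20.7% of all genes. GCH1, of cofactor synthesis for tyrosine hydroxylase, rose in KO (0.93 ± 0.17, adjusted p = 0.000882). CHRNB4, a nicotinic receptor subunit, fell, with 40 counts in WT against 2 (ratio 21.1, 95% counting interval 5.48 to 180, edgeR adjusted p = 0.00254).

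**Figure D3:**
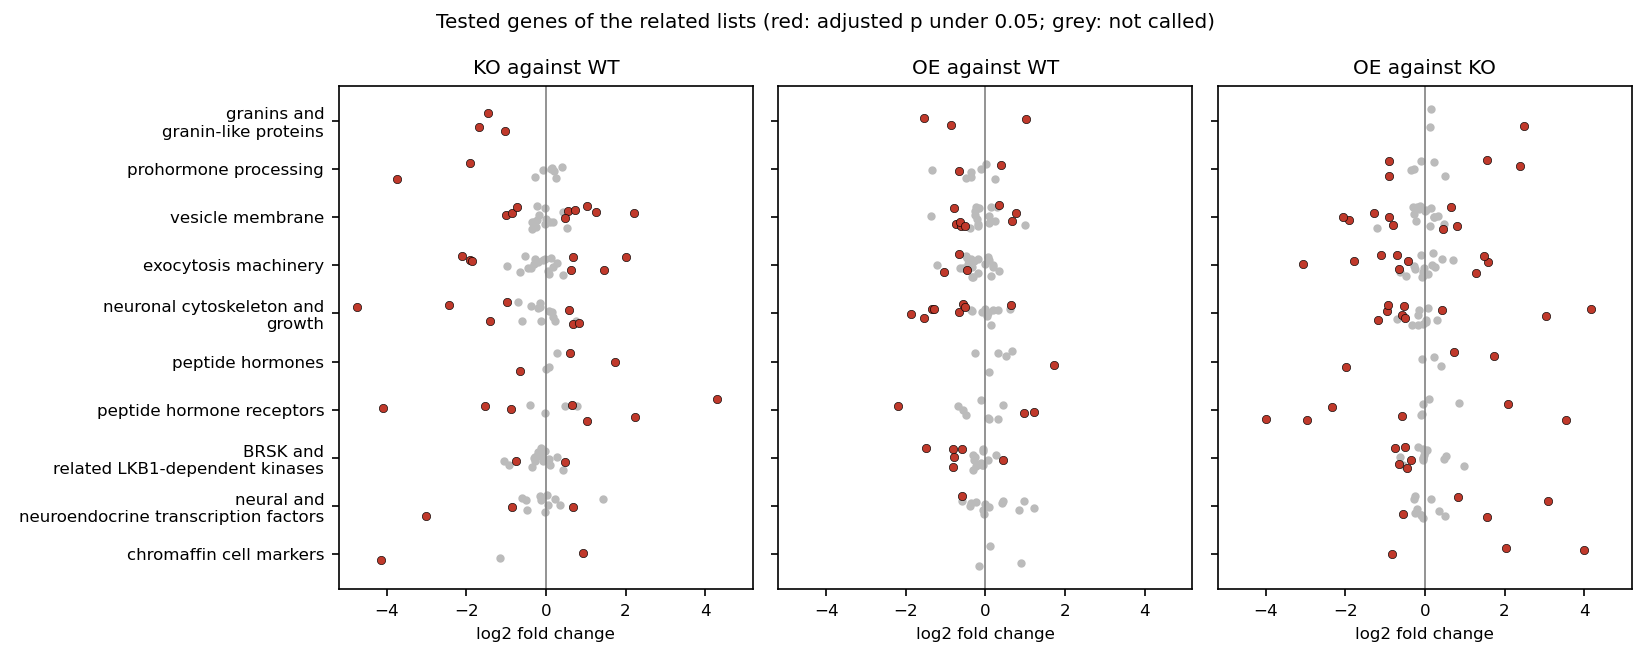
Log2 fold change of each tested gene (1 point per gene) in the 10 gene lists, 1 row per list and 1 panel per comparison, with the 10 genes of the report left out. Red points have an edgeR adjusted p under 0.05 and grey points do not. The 3 tested granin-list genes are all red and below 0 in KO, while the vesicle membrane and exocytosis lists hold red points on both sides of 0 there. Of those 3, the SCG3 call was lost in 5 of 17 alternatives, and 2 further granin-list genes were not tested.

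Pooled over the 10 lists, with the 10 genes left out and each gene counted once, 130 of 253 genes were tested, and 46 had no count. Among those tested, CPE, RAMP2, INSM1 and CHRNB4 passed the filter on low counts through groups other than KO. In KO, 22 were called higher and 23 lower, or 34.6% of the genes tested, where 9.16% and 9.6% of all genes were called higher and lower (18.8% in either direction). Without KO replicate 2 the 22 higher became 12. The median log2 fold change was -0.08 against -0.007 over all genes. In the OE-labelled libraries, 10 were higher and 25 lower (26.9%), against 9.65% and 11% of all genes (20.7% in either direction), with a median of -0.18 against -0.01. That split rests in part on single libraries: the 25 lower became 11 without WT replicate 1, 12 without WT replicate 3 and 14 without OE replicate 2, and the 10 higher became 6 without WT replicate 1. These list genes were chosen with earlier results known, so nothing particular to them is read from the shares. With library totals in place of TMM scaling the split between the OE-labelled libraries and WT was 8 and 35, and the median of all genes moved to -0.128. Between the OE-labelled libraries and KO, 21 were higher and 31 lower (40%), where 19% and 20.6% of all genes were called higher and lower (39.7% in either direction). Of the calls, 27 of 45, 12 of 35 and 34 of 52 were made in every alternative, in the order of the comparisons.

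Genes near the 10 on the chromosome were taken as up to 10 tested genes on each side, none of them among the 10. The neighbours of CHGB lay lower in KO: their median log2 fold change was -0.66, 19 of 20 were negative, and 12 were called lower, over chromosome 20 from 4120980 to 10368776. That median was -0.08 in the OE-labelled libraries, while CHGB itself was at -1.39. Around the other 9 genes the KO median ran from -0.23 for TSHR to 0.16 for CADPS. Neighbours of UTS2 ranged from -1.37 to 0.63, with 0 of them called in KO, and neighbours of CADPS from -0.89 to 1.18. Around BRSK2 the median was -0.21, with 6 of 20 called lower and a lowest value of -3.41. Among other genes of the lists with values below WT in KO, the neighbours of CPLX2 had a median of -1.04, those of INSM1 -0.71, those of SNAP25 -0.67 and those of MAP1B -0.47, against -0.21 for NAPB. For list genes with values above WT in KO, the neighbours of SYPL1 had a median of 0.38, with 16 of 20 positive and 6 called higher. Those of SV2B had -0.19 and those of SYT11 -0.01. Whether the number of copies of these stretches differs between the cells was not tested.

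**Figure D4:**
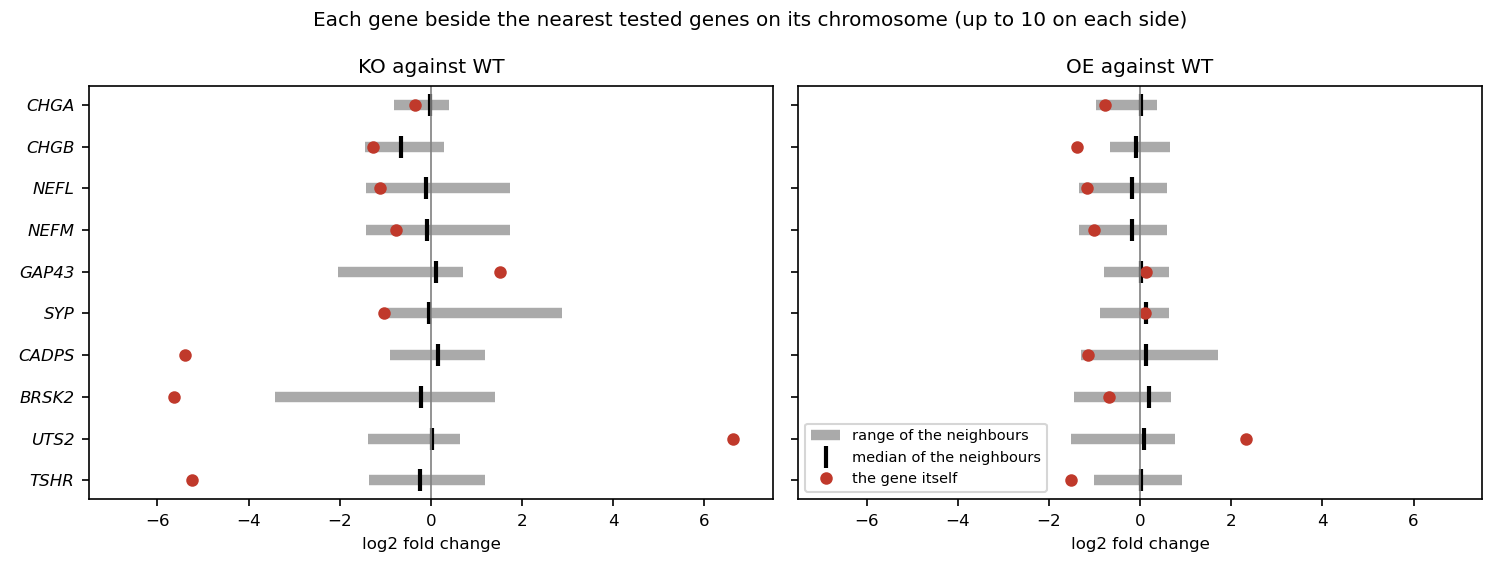
Log2 fold change against WT of each of the 10 genes (red point), beside the range (grey bar) and median (black tick) of up to 10 tested genes on each side of it, for KO (left) and the OE-labelled libraries (right). In KO, CADPS, BRSK2, TSHR, GAP43, UTS2 and, just, SYP lie outside the range of their neighbours, whereas CHGB lies inside a range with a median of -0.66. The UTS2 point rests on 2 WT counts.

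Levels of different genes were compared per kilobase of exon. That length includes stretches shared with other genes, 26.4% for NEFM and 48.4% for UTS2, whose reads were not assigned. Their values per kb may therefore be too low, and the places and overlaps of NEFM and UTS2 below are uncertain. In WT the order was NEFL at 24.4 CPM per kb, SYP 11.7, CHGB 7.62, NEFM 5.99, GAP43 3.72, CADPS 1.83, BRSK2 1.15, CHGA 0.956, TSHR 0.611 and UTS2 0.0454. By these values over full exon length, only BRSK2 and CHGA overlapped among neighbours in that order. NEFL was above 85% of tested genes in WT, SYP above 72.3% and CHGB above 62.3%, while CHGA was above 19%. In KO, GAP43 at 10.6 CPM per kb overlapped NEFL at 11.2. By full exon length, UTS2 at 5.04 overlapped SYP at 5.8 there. CADPS, BRSK2 and TSHR were last in KO, at 0.043, 0.0216 and 0.0144 CPM per kb, and could not be ordered. Among the OE-labelled libraries, SYP at 12.6 CPM per kb overlapped NEFL at 10.9.

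Across the 9 libraries, 2 further patterns were visible in the correlations of log2 CPM. CADPS and BRSK2 had 0.96, BRSK2 and TSHR 0.94, and UTS2 and GAP43 0.94, whereas UTS2 and BRSK2 had -0.98. CHGA reached at most 0.64, with NEFM. The protein-coding genes most like each of the 10, by Pearson correlation over 9 libraries among 10355 candidates, were APCDD1 (0.986) and RBM5 (0.981) for CHGB, SCARA5 (0.989) and DKK3 (0.989) for NEFL, and CSNK1D (0.962) and ZNF862 (0.96) for NEFM. For SYP they were PRMT2 (0.992) and MAPK12 (0.989), for GAP43 SLC47A1 (0.978) and GTSF1 (0.977), and for CADPS VPS16 (0.991) and GPR37 (0.989). For BRSK2 they were DSG2 (0.995) and SLU7 (0.994), for UTS2 PIGC (0.985) and TRIP13 (0.984), for TSHR CDH11 (0.987) and DACT1 (0.986), and for CHGA DEPDC5 (0.922) and RNF168 (0.882). Such correlations rest on 9 points in 3 groups and are the best of many candidates. DSG2, a desmosomal cadherin, was at 11.3 CPM in WT and 0.149 CPM in KO, and PIGC, of glycolipid anchor synthesis, at 41.4 CPM in WT and 79.8 CPM in KO.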

How the data were processed

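Polyadenylated RNA of 9 H295R libraries was sequenced, and the authors deposited raw read counts, as whole numbers for each gene and library. Per the file headers, featureCounts 1.5.2 was run on Ensembl release 101 (GRCh38) with no strand or multi-mapping option, so reads in stretches shared by genes, and multiply mapped reads, were left out. The submitters' processing notes name HISAT2 1.03 and featureCounts 0.1.0.

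Counts were tested with edgeR 4.0.16 in R 4.3.3 (quasi-likelihood F test, TMM scaling, a filterByExpr minimum of 10 counts, all 9 libraries in one fit), with Benjamini-Hochberg adjustment over 14150 genes and a threshold of 0.05. CPM are relative to TMM-scaled totals. Errors of fold changes are SE, and intervals of 95% use 6 residual degrees of freedom. The edgeR tests also draw on the spread of all genes, so these intervals are wider than the tests. Correlations use log2 CPM with a prior count of 2. The median SE was 0.187 for KO against WT. Count intervals cover counting error only and take each count as independent. Many low counts were even, such as 2, 0 and 2 for BRSK2 and 0, 0 and 4 for TSHR in KO. Whether 1 fragment could give 2 counts was not tested. If it could, these intervals and the floor of 3 counts are too narrow.

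The 10 genes and the 10 gene lists were chosen with earlier results of these data known. The text names the 10 genes, SGPL1, their close relatives and partners, up to 4 genes per list with the smallest adjusted p among those called, and the 2 genes most like each of the 10 (mean of at least 5 CPM). SYP-AS1, ENSG00000272163, PER3, SCARB1, STAR and CYP17A1 were named after their values were seen. Some genes that the rule takes are left out of the text. Scaling, tool, filter, samples in the fit, replicate block, exon length and left-out libraries were varied.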

Additional observations from a re-analysis of the deposited data

How the results depend on the processing

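Over the 17 alternatives, the numbers of list genes called changed in size. Leaving out each library in turn gave 12 to 23 genes of the lists called higher and 19 to 26 lower in KO against WT, 6 to 10 higher and 11 to 27 lower in the OE-labelled libraries against WT, and 18 to 24 higher and 21 to 33 lower in the OE-labelled libraries against KO. The lowest were 12 higher in KO without KO replicate 2, and, for the OE-labelled libraries against WT, 6 higher without WT replicate 1 and 11, 12 and 14 lower without WT replicate 1, WT replicate 3 and OE replicate 2. The cause was not tested. DESeq2 gave 22 and 24, 12 and 28, and 23 and 31. The length correction gave 23 and 25, 9 and 17, and 25 and 26. WT replicate 2 and OE replicate 2 had the lowest length slope of their groups and were left out together as a choice made after seeing the data, which gave 23 and 32, 11 and 26, and 24 and 26. Same-numbered libraries had correlations of deviations from -0.14 to 0.25, not all of them positive, and the labels name nothing shared by a number, so the libraries were not treated as pairs. That 5 of 9 libraries correlated best with their own number is a hint from the data, not the design. The replicate block gave 24 and 24, 11 and 31, and 24 and 34. Of the 10 genes' fold changes, TSHR in KO moved from -5.24 to -8.74 without KO replicate 3, BRSK2 to -5.07 without KO replicate 2, and UTS2 between 6.09 and 9.34 with WT libraries left out. A sign changed under some setting for CHGA in KO, SYP and GAP43 in the OE-labelled libraries against WT, and CHGB and NEFL between the OE-labelled libraries and KO. Genes with fewer than about 10 counts per library are limited by depth.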
